A study of Mus musculus with 2 samples.

Results

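Postn, Loxl1, Bgn, Fbn1, Adamts1, Adamts5 and Adamts12 encode proteins that build, link or cut the extracellular matrix, and each was assigned a KLF4 peak in portal fibroblasts of mouse liver. They were taken because the deposited peak list holds a peak under their symbol, together with any intronic peak whose annotation names the gene. That gave 8 peaks of 4216 (0.190%) and 7 genes of 3648 with an assigned peak. Over all protein-coding genes of a reference table, 6.91% had an assigned peak. The genes were thus chosen by the same peak calls that are described here, and their folds, p-values and q-values are given with no test.

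The cells were Clec3b-tdT+ cells sorted by flow cytometry from livers of Clec3bCreERT2;R26tdT mice, in which a Cre recombinase driven from Clec3b switches on a red reporter. They then received Klf4 by lentivirus. The study asked how KLF4 bears on the change of these portal fibroblasts into myofibroblasts, and its title names periostin. The data are 1 chromatin immunoprecipitation (ChIP) library made with an anti-KLF4 antibody and 1 input library of unprecipitated chromatin. Both came from cells with Klf4 overexpression, so cells without added Klf4 were not analysed here. The labels give neither the number of mice nor their age. With 1 library of each kind, no value has a replicate error.

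KLF4 is a zinc-finger transcription factor that binds GC-rich and CACCC-type DNA and can raise or lower transcription of its targets. Portal fibroblasts surround the bile ducts and portal veins and deposit matrix in biliary fibrosis. In fibrotic tissue, periostin links collagen to cells, fibrillin fibres store growth factors of the TGF-β family, lysyl oxidases crosslink fibres, and ADAMTS proteases cleave proteoglycans and other matrix proteins.

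The letters around the starts of these genes can be shown from RefSeq promoters of the build GRCm38.p6, which is older than the GRCm39 build of the peaks, so their positions were not set against each other. Promoters were matched by symbol for 5 of the 7 genes, with 6 starts in all. Periostin is shown because its peak was the only promoter-class peak of the group, and fibrillin-1 because a peak of its gene had the lowest q. That Fbn1 peak lay in intron 34, 156.6 kb after the start of the listed transcript. Each line gives the 250 bases before a start, 5′ to 3′ on the gene's own strand, and capitals mark GGGTG or GGGNGNGG on either strand (CACCC or CCNCNCCC when read on the other one).
Postn, first start, chromosome 3, plus strand: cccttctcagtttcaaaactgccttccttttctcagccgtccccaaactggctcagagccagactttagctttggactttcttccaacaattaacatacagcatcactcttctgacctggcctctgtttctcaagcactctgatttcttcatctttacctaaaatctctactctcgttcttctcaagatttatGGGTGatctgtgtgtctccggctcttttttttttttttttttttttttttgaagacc
Postn, second start, chromosome 3, plus strand: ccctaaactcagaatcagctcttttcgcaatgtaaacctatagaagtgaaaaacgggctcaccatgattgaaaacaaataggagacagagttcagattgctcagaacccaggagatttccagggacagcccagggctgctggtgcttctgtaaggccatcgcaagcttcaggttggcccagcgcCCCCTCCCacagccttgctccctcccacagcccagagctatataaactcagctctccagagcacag
Fbn1, chromosome 2, minus strand: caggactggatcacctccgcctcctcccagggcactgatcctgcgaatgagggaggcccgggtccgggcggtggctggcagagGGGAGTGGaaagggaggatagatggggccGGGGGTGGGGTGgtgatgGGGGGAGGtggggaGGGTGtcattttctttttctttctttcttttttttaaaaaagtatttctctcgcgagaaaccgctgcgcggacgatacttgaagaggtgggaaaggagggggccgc

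The first Postn window, 40.4% G and C, held 1 GGGTG and no GGGNGNGG. The second, 1840 bp further along and 52.0% G and C, held no GGGTG and 1 GGGNGNGG. The Fbn1 window, 59.2% G and C, held 3 GGGTG and 4 GGGNGNGG, with 2 of the GGGTG overlapping the longer motif. Bgn had 2 and 7 matches, Adamts1 1 and 3, and Adamts12 3 and 6. Over all 32851 windows of the table, 52.0% held GGGTG and 45.9% held GGGNGNGG, and the median window was 52.4% G and C. Such letters are therefore common before gene starts, and a match describes the sequence, not a bound site. No member had a peak within 1 kb of the start of its listed transcript.

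Periostin is a secreted matricellular protein of connective tissue. Its peak covered 185 bp of chromosome 3 (GRCm39), from 54294950 to 54295134, and ended 1176 bp before the start of transcript ENSMUST00000150868. The fold enrichment was 4.54 and the q was 0.0484. All folds, p-values and q-values are the authors' own, from their peak caller. A fold is the ChIP signal plus 1 over the local background plus 1, and q is the p-value adjusted over the genome. The peak rested on 6 ChIP fragments at its summit against a background of 0.542 fragments. A count of 6 has a 95% exact Poisson interval of 2.20 to 13.1, which covers counting error only. Few bound cells, weak binding in many cells and fragments gathered without KLF4 binding cannot be told apart from such a count.

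The promoter class of the Postn peak depended on that transcript. ENSMUST00000150868 ran from 54296310 to 54297814, or 1505 bp, while the Postn gene spans 31.8 kb in GRCm38.p6, so the transcript was 4.74% as long as the gene. Where this transcript lies within the gene was not read from the files, and the peak was not placed against either RefSeq start shown above. A peak 1176 bp before so short a transcript may lie inside the gene, far from its main start, and the promoter class alone does not place it at the Postn promoter. Short transcripts also carried other promoter peaks. Of 510 promoter-class peaks of protein-coding genes matched to the gene table, 226 (44.3%) were assigned to a transcript at most 50% as long as its gene. For 46 of the 510 (9.02%) the share was as small as that of Postn or smaller. The Postn peak was like other peaks at 1 to 2 kb in strength, since these 241 peaks had a median of 6 fragments and a median fold of 4.59.

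Fbn1 encodes fibrillin-1, the main protein of the microfibrils on which elastic fibres form. It was the only member with 2 peaks, and the stronger was not listed under its symbol. That peak covered 108 bp of chromosome 2, from 125193249 to 125193356, in intron 34 of the 65 introns of Fbn1 transcript ENSMUST00000028633. The list assigned it to Gm14003, a long non-coding RNA gene whose start lay 67351 bp away, nearer than the Fbn1 start at 156.6 kb. With a fold of 5.53, a q of 0.00343 and 8 ChIP fragments (exact interval 3.45 to 15.8) over a background of 0.629, it was the strongest peak of the 8 by these measures. In the whole list 271 peaks (6.43%) had a higher fold.

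The second Fbn1 peak carried the symbol but lay outside the gene. It covered 389 bp, from 125404831 to 125405219, and lay 54918 bp upstream of the start of transcript ENSMUST00000103234, which ran from 125142547 to 125349913 on the minus strand. Its class in the list was 3′ UTR, which therefore cannot be that of this Fbn1 transcript. Such a mismatch can arise because the class describes any gene at the site while the symbol gives the nearest start. Of 1349 intronic peaks 578 (42.8%) named another gene than the assigned one. Of 66 peaks classed as 3′ UTR, 46 (69.7%) lay outside their assigned transcript. Some of the 46 may still lie in their assigned gene, because an assigned transcript can be shorter than its gene. In the gene table the next protein-coding gene on that side of Fbn1 was Cep152, a centrosome gene. The peak had 5 fragments (exact interval 1.62 to 11.7) over a background of 0.307, the genome-wide level, with a fold of 4.59 and a q of 0.0475.

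Loxl1 encodes a lysyl oxidase that crosslinks elastin. Its peak covered 156 bp of chromosome 9, from 58204618 to 58204773, in intron 2 of 6 of ENSMUST00000061799, 15696 bp after the start. The assigned transcript was 99.8% as long as the gene, so for Loxl1 both symbol and annotation pointed to the full gene. The peak had 7 fragments (exact interval 2.81 to 14.4) over a background of 0.542. Its fold was 5.19 and its q 0.0104. By fold it was second among the 8 peaks, and 600 peaks of the list (14.2%) stood higher.

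Bgn encodes biglycan, a small leucine-rich proteoglycan that binds collagen. Its peak was intergenic, covered 203 bp of chromosome X from 72519445 to 72519647, and lay 7561 bp upstream of transcript ENSMUST00000133394, which was 74.1% as long as the gene. It had 5 fragments over the genome-wide background of 0.307, with a fold of 4.59 and a q of 0.0475. These last were the values of 989 peaks of the list, including the upstream peak of Fbn1. Of all 8 peaks this one stood farthest from others, with 1687 kb to the next peak on chromosome X.

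The ADAMTS proteases, secreted metalloproteinases with thrombospondin repeats, were represented by 3 members. Adamts1 and Adamts5, which cleave the large proteoglycans aggrecan and versican, are neighbouring protein-coding genes on chromosome 16. Their peaks were consecutive in the list, 80.8 kb apart. The Adamts1 peak (85577863 to 85578102, 240 bp) was intergenic and lay 17017 bp beyond the end of ENSMUST00000138474, a transcript of 1408 bp that was 15.2% as long as the gene. It had 6 fragments, a fold of 4.54 and a q of 0.0484, the same values as the Postn peak and as 563 peaks in all.

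The Adamts5 peak (85658931 to 85659206, 276 bp) lay inside ENSMUST00000023611, 39510 bp after its start and 5870 bp before its end. It was classed as 3′ UTR, and the list does not name the transcript that this class refers to. Its 6 fragments over a background of 0.551 gave a fold of 4.51 and a q of 0.0484. Adamts12, whose protease cleaves the cartilage matrix protein COMP, had an intronic peak on chromosome 15 (11157920 to 11158199, 280 bp), in intron 3 of 23 of ENSMUST00000061318. It lay 93016 bp after the start of the assigned transcript ENSMUST00000228940. With 6 fragments over 0.564 it had the lowest fold of the 8, 4.47, at a q of 0.0484.

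**Figure D1:**
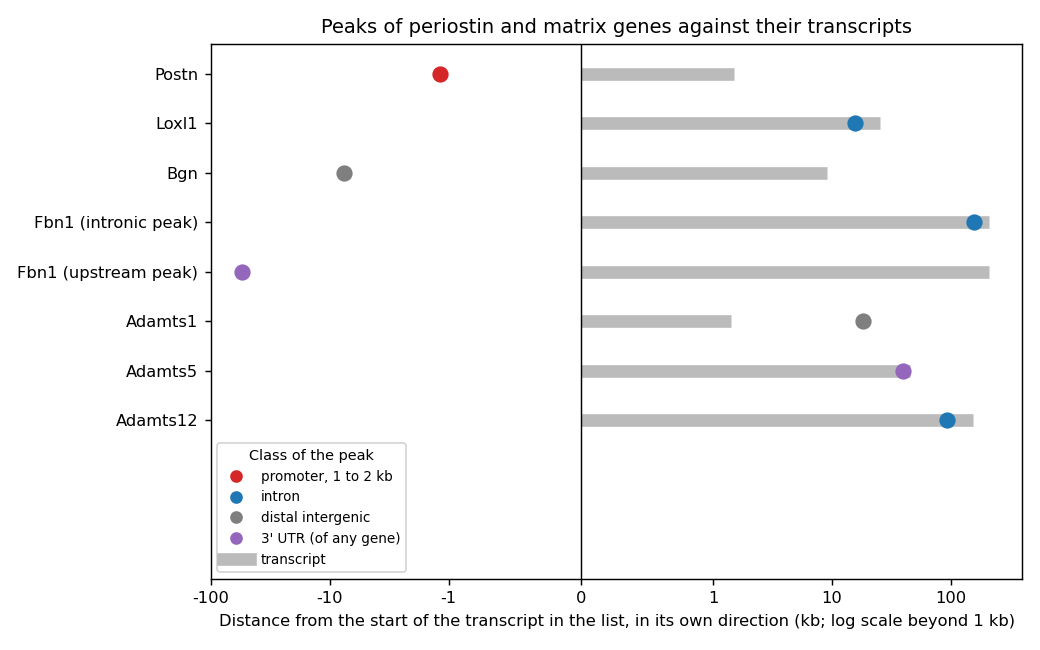
Position of the 8 peaks (points, coloured by class) against the transcript the list gives for each gene (grey bars), in kb from its start, on a log scale beyond 1 kb. The peaks of Postn and Bgn and 1 of Fbn1 lie before the start, that of Adamts1 lies beyond the end, and 4 lie inside the transcript, none of them within 1 kb of its start.

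Across the group, 4 of the 8 peaks lay inside the transcript of their gene, namely those of Loxl1, Adamts5 and Adamts12 and the intronic peak of Fbn1. The other 4 lay outside the transcript listed for their gene. The symbol follows the nearest start for peaks inside and outside alike, and only the intronic Fbn1 peak was taken by annotation text alone. By class, 3 of the 8 were intronic, 2 intergenic, 2 in a 3′ UTR and 1 promoter. A promoter-class peak was thus assigned to 1 of the 7 genes, and to 2.18% of all protein-coding genes. The 7 were chosen for having a peak, and of the 1514 protein-coding genes with any assigned peak 477 had a promoter-class one. In the order given, the classes make up 37.5%, 25.0%, 25.0% and 12.5% of the 8 peaks. In the whole list 32.0% of peaks were intronic, 43.1% intergenic, 1.57% in a 3′ UTR and 20.6% promoter. As genes with KLF4 peaks, 4 therefore had a peak within their listed transcript, while Bgn and Adamts1 had an intergenic peak by the nearest start. The Postn peak lay outside its listed short transcript, and whether it lies inside the gene was not settled here.

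In strength the 8 peaks were close to the bulk of the list. Their folds ran from 4.47 to 5.53 with a median of 4.56, against 4.59 over all peaks. Of the 8, 4 lay below the list's median, 2 at it and 2 above it. Fragments numbered 5 at 2 peaks, 6 at 4, 7 at 1 and 8 at 1. Thus 75.0% had at most 6 fragments, and in the whole list 75.3%. The exact intervals of the lowest count (1.62 to 11.7) and the highest (3.45 to 15.8) overlap. They take no account of the peaks having passed a q limit, and whether the peaks differ in strength was not tested.

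All 8 peaks lay in low background, from 1.00 to 2.04 times the genome-wide level. At 3 of them, those of Postn, Adamts1 and Loxl1, the background was 0.542. This was read as the level worth 1 input fragment after scaling to the ChIP library. Only the intronic peak of Fbn1 had a q under 0.01 (1 of 8), and in the list 17.4% of peaks did. The Loxl1 peak stood just above that limit.

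The order of strength depended on the 1 added to signal and background. Without it, the ratio of fragments to background was 16.3 at the Bgn peak and at the upstream peak of Fbn1, the highest of the group. The intronic Fbn1 peak then had 12.7 and the Loxl1 peak 12.9. Adamts12 was lowest by both measures, with a ratio of 10.6.

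**Figure D2:**
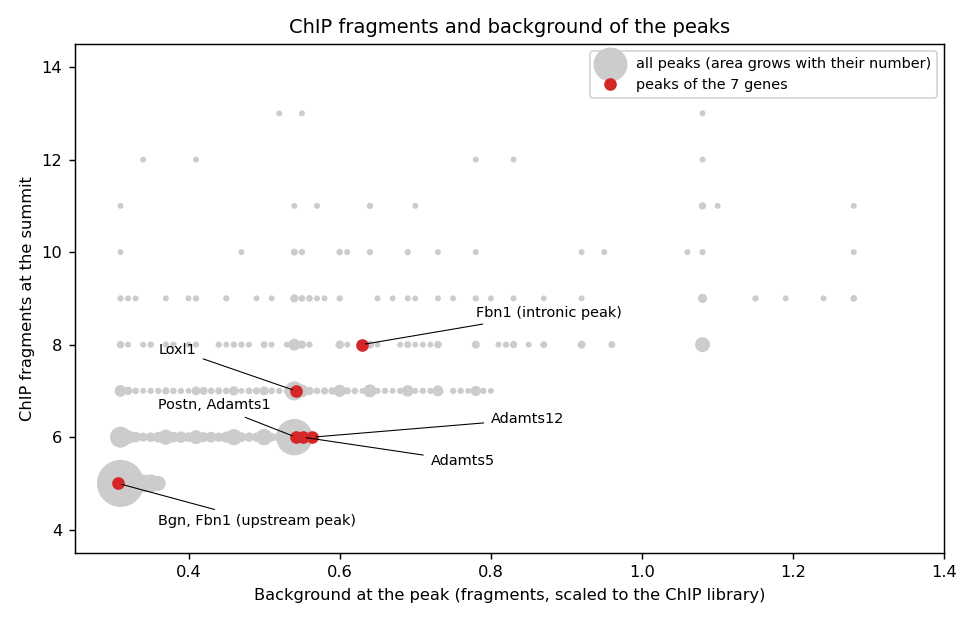
ChIP fragments at the summit against background, for the 8 peaks (red) and all peaks of the list within the axes (grey, area growing with their number; 230 of 4216 peaks lie outside). The peaks of Bgn and upstream of Fbn1 share the commonest point at 5 fragments, those of Postn and Adamts1 share another at 6, and only Loxl1 and the intronic peak of Fbn1 reach 7 and 8.

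No peak of the group had another peak of the list nearer than 80.8 kb. The median gap to the nearest other peak was 168 kb for the 8 and 176 kb for the list. The peak before that of Postn, 234 kb away, was 2 to 3 kb from a start of Trpc4, a cation channel gene, with a fold of 5.19, and the next was that of Dclk1, a kinase gene, at 971 kb. The upstream Fbn1 peak was followed at 86.3 kb by a peak of Eid1, a transcriptional inhibitor gene, with a fold of 4.59. The Loxl1 peak followed at 127 kb a peak of Islr, which encodes a leucine-rich repeat protein, and was followed by one of Gm22099 at 2129 kb. The Adamts12 peak lay between peaks of C1qtnf3, a secreted C1q-like protein gene (209 kb), and Zfr, an RNA-binding protein gene (953 kb). On the far sides of the Adamts1 and Adamts5 pair lay peaks of Cyyr1 (358 kb) and Gm38477 (1146 kb). The peaks next to that of Bgn were far away, those of Mbnl3, a splicing factor gene (22237 kb), and Smim9 (1687 kb). Before the intronic Fbn1 peak lay one of 4930517E11Rik at 1222 kb.

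**Figure D3:**
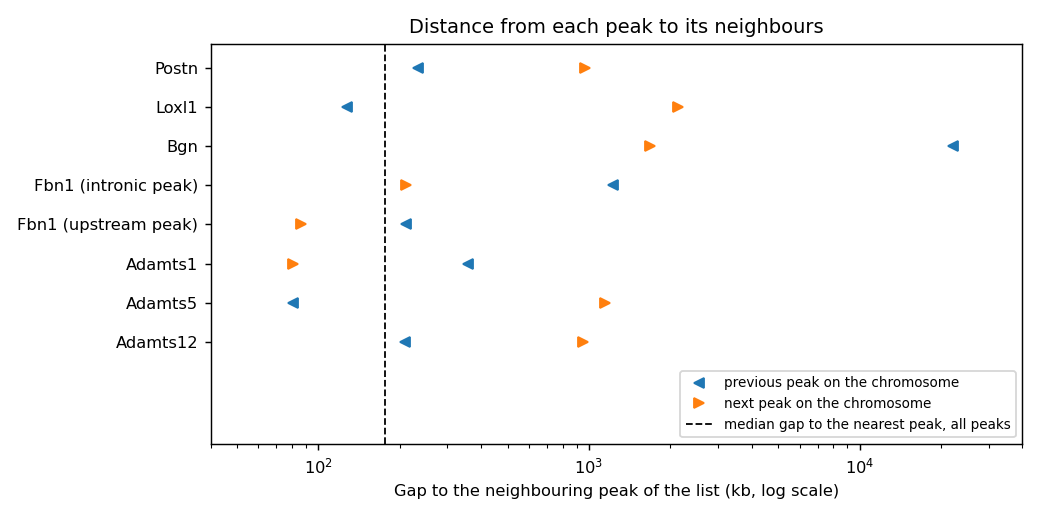
Gap in kb (log scale) from each of the 8 peaks to the previous and the next peak of the list on its chromosome. The smallest gap is the 80.8 kb between Adamts1 and Adamts5, and the dashed line is the median gap to the nearest peak over the list, 176 kb.

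The wider matrix was read from 9 lists with 142 genes, which include the 7 genes above. Of these, 16 genes had an assigned peak by symbol (11.3%, 95% exact interval 6.58% to 17.7%, for counting error only). Among all 21900 protein-coding genes of the table the share was 6.91%. Without the 7 genes, which were chosen for their peaks, 9 of 135 were left, or 6.67% (exact interval 3.09% to 12.3%), close to the share of all genes. A promoter-class peak was found at 4 of the 142 (2.82%), at 3 of the 135 (2.22%) and at 2.18% of all protein-coding genes. A peak with a q under 0.01 was assigned by symbol to 0 of the 142 and to 1.13% of all genes. The lists were written with results known, and no test was made.

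The 20 collagen genes listed had no assigned peak, which allows a share of up to 16.8%. Matrix metalloproteinases and their TIMP inhibitors had none at 19 (up to 17.6%), and adhesive glycoproteins and basement membrane genes none at 12 (up to 26.5%). Counts cover the listed genes only, and a family may have members outside its list. A gene at 0 may still hold an intronic peak listed under another symbol, as the Fbn1 case shows, because the list pairs gene IDs with symbols only for assigned genes. Fbn1 was the only one of 17 elastic fibre genes (5.88%) and Bgn the only one of 15 proteoglycan genes (6.67%) with a peak. Both were chosen for their peaks, and without them the counts were 0 of 16 and 0 of 14. The share of all protein-coding genes was 6.91%. Among 16 crosslinking and processing genes, P4ha3, a subunit of collagen prolyl hydroxylase, had a peak 404 bp before its start (fold 4.54) beside that of Loxl1.

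Of 18 matricellular genes 4 had peaks (22.2%), beside 6.91% of all protein-coding genes. Without Postn, chosen for its peak, 3 of 17 had peaks (17.6%, exact interval 3.80% to 43.4%, which covers 6.91%). The 3 besides Postn were Ccn3, Ccn5 and Tgfbi, the last a fasciclin-domain relative of periostin. Ccn3, a secreted growth regulator, had a peak of 508 bp reaching to 63 bp before its start, with 7 fragments, a fold of 5.19 and a q of 0.0104. It was thus as strong as that of Loxl1, and nearer to a start than any peak of the 7 genes. The Ccn5 peak was 11446 bp upstream (fold 4.59), and that of Tgfbi lay 33500 bp after the start of a transcript of 1331 bp (fold 4.49).

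ADAMTS proteases had assigned peaks at 6 of 19 genes (31.6%, exact interval 12.6% to 56.6%), beside 6.91% of all protein-coding genes. None of their 7 peaks was at a promoter, and only 2.18% of all protein-coding genes had a promoter-class peak. Without Adamts1, Adamts5 and Adamts12, chosen for their peaks, 3 of 16 genes had a peak (18.8%, exact interval 4.05% to 45.6%, which covers 6.91%). These 3 were Adamts3, a procollagen-cleaving protease, Adamts17 and Adamts18. Adamts18 had 2 intronic peaks, with folds of 4.54 and 5.16. Adamts17 had 1 in an intron (fold 4.45), and the Adamts3 peak was intergenic, 95925 bp upstream (fold 4.54). At 6 of the 7 peaks of the family there were at most 6 fragments. Among 6 ADAMTS-like genes, Adamtsl4 had a peak 339 bp before its start (fold 4.59) and Adamtsl1 a peak 106835 bp after its start (fold 4.54), in an intron that the annotation gives to another gene.

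The lists differed in gene length. The median gene span in GRCm38.p6 was 17.1 kb over all protein-coding genes, 52.2 kb over those with an assigned peak, and 114 kb over the ADAMTS list. It was 91.3 kb over the listed collagens and 66.2 kb over the listed adhesive glycoproteins, which had no peak. The listed metalloproteinases and TIMPs, which had no peak either, had a median of 10.9 kb. The median was 30.9 kb over the ADAMTS-like genes, 2 of 6 with a peak, and 27.3 kb over the matricellular genes. Elastic fibre genes had a median of 59.4 kb, crosslinking and processing genes 28.5 kb, and proteoglycans 17.2 kb. The 7 genes, chosen for a peak, had a median of 31.8 kb, against 52.2 kb over all protein-coding genes with one. Of the 7 genes 5 were longer than the median of all protein-coding genes. Adamts12 (284 kb) and Fbn1 (206 kb) were far longer, while Adamts1 (9.29 kb) and Bgn (12.3 kb) were shorter. The part of gene length in the counts was not tested.

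**Figure D4:**
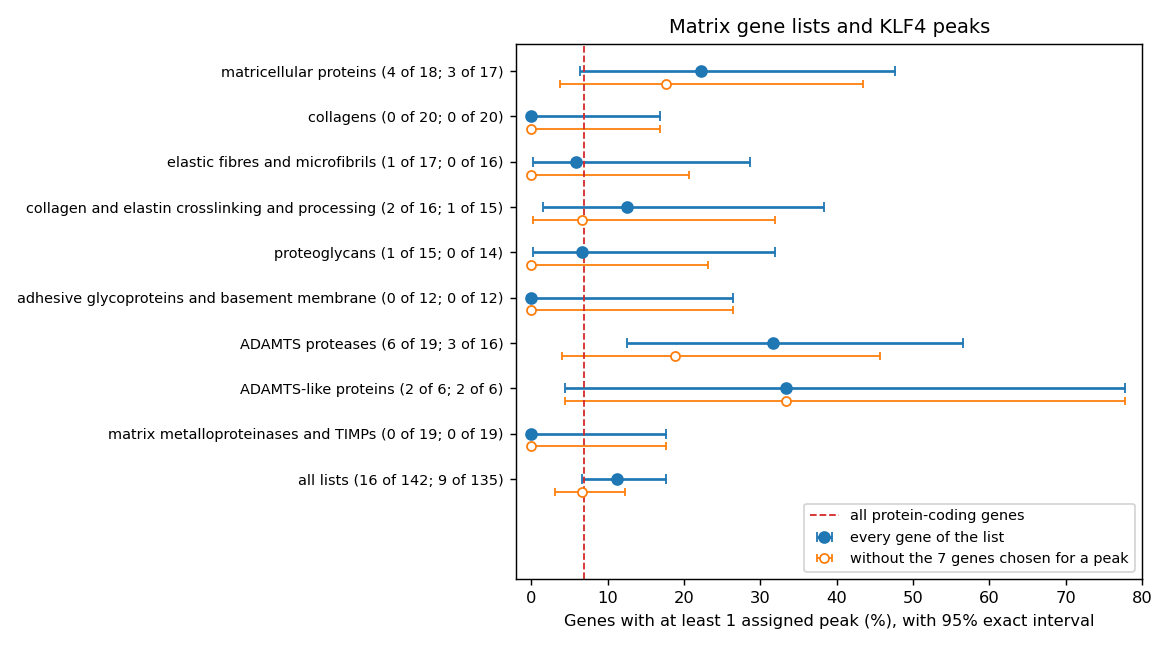
Share of genes with at least 1 peak assigned by symbol in each of 9 matrix lists and in all 142 genes (filled points), and the same without the 7 genes chosen for a peak (open points), with 95% exact intervals for counting error only. The dashed line is the share of all protein-coding genes, 6.91%. The lists of collagens, adhesive glycoproteins and metalloproteinases are at 0, and that of ADAMTS proteases at 31.6%, or 18.8% without the chosen genes.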

How the data were processed

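One KLF4 ChIP library and 1 input library, grouped by their titles, lay behind 1 deposited annotated peak list. Among the tools in the submitters' processing notes are MACS2 2.2.7.1, a peak caller, ChIPseeker 1.44.0, a peak annotator, and Bowtie2 2.4.2, an aligner, with the build GRCm39. Their settings were not stated in the labels. Per the file headers, the authors deposited for each peak a fold enrichment (a linear ratio), the −log10 of its p-value and q-value, and both p-value and q-value themselves. The highest q was 0.0491. Class, transcript and distance to the transcript start were used as deposited.

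Fragments and background at each summit were recovered from fold and p, with 1 added to both in the fold and p read as a Poisson tail above the fragment number. A whole number fitted all 4216 peaks within 0.001 of −log10 p, and all heights of 1000 simulated peaks were recovered. The background of 0.542, shared by 728 peaks, was read as worth 1 input fragment, without library depths. Absolute depth is unknown. Offsets within transcripts come from the listed coordinates. Gene names, spans and neighbours come from a RefSeq table of GRCm38.p6, in which all 142 list genes matched.

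The genes and lists were chosen with earlier results of these data known. Named genes are the 7, other list genes with a peak, and the genes of the next peaks. No test was made. Alternatives were stricter q limits, other assignment rules, a 1 kb promoter limit, transcript length, and other measures of strength. Values were computed in Python 3.11.15 with scipy 1.17.1 and pandas 2.3.3, and drawn with matplotlib 3.10.9.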

Additional observations from a re-analysis of the deposited data

How the results depend on the processing

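With a q under 0.01, the number of peaks of the 7 genes fell from 8 to 1, their median fold was 5.53, 0 genes had a promoter peak and 0 list genes had a peak by symbol. With a q under 1e-05 there were 0 peaks. By annotation text alone there were 3 peaks, and 4 lay inside the transcript (chosen after seeing the data); by symbol alone there were 7, and without high-background peaks 8. Members with a promoter peak numbered 0 with a limit of 1 kb and 0 where the transcript had to exceed 50% of the gene span. The median fold was 4.54 with the strongest peak per gene and 11.9 with nothing added. Of 16 list genes, 4 remained with promoter peaks alone and 9 of 135 without the 7 genes, a setting chosen after seeing the data; so was the count for ADAMTS proteases without them, 3 of 16. Stricter limits leave fewer peaks by construction. Each peak rests on 5 to 8 fragments, with wide counting intervals. No paired analysis was possible because there was 1 library of each kind and no test.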
